A study of Rattus norvegicus with 6 samples.

Results

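The genes described here are 10 members of the circadian clock, Arntl, Npas2, Clock, Cry1, Nfil3, Dbp, Nr1d1, Nr1d2, Per2 and Per3. They were found by symbol in a table of 19828 entries from bulk RNA-seq of total lung, and all 10 were present. The table compared 3 wild-type (WT) with 3 Ahr-knockout (Ahr-KO) libraries, here called by genotype and by the number 0, 1 or 2 of their table column. All came from Sprague-Dawley rats with the Sugen-Hypoxia treatment at day 56, a model of pulmonary arterial hypertension that joins an inhibitor of VEGF receptors with low oxygen. The sources used here do not give the Ahr edit, the age of the animals, the number of animals behind a library or the time of day at which tissue was taken. No untreated lung is in the series, so both groups share the treatment. The 10 members were chosen with values of these libraries known, so their own differences are given as a description, with no test.

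The clock is a feedback loop that runs in most cells, including those of the lung. ARNTL (also called BMAL1) pairs with CLOCK or its relative NPAS2, and the pair switches on genes that carry E-box letters, among them the Per and Cry genes, Nr1d1, Nr1d2 and Dbp. PER and CRY proteins then inhibit the pair, while NR1D1 and NR1D2 (REV-ERB alpha and beta) repress Arntl, Npas2, Clock, Cry1 and Nfil3 through ROR elements. DBP activates and NFIL3 represses genes with a D-box. In rodent tissues the Arntl transcript is therefore known to peak about opposite to those of Nr1d1 and Dbp, with Nr1d1 early among its group and Per2 late. ARNTL, CLOCK, NPAS2 and AHR all belong to the bHLH-PAS family of transcription factors.

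Stretches of DNA before the start sites of the genes whose levels are reported below show the letters on which this loop is known to act. They were taken from RefSeq promoter entries on the rat build GRCr8, which is not the rn6 build named for the expression data. Entries were found for 9 of the 10 members, all but Cry1, with Arntl listed as Bmal1. The 250 bases before each start were searched on both strands for CACGTG (E-box), CACGTT (an E-box variant, counted separately), TTATGTAA or TTACGTAA (D-box) and TAGGTCA (the core of a ROR element). Capitals mark these matches, and each sequence runs 5′ to 3′ on the gene's strand. The Arntl stretch lies at chr1:176766298-176766327 (plus strand), the Nr1d1 stretch at chr10:84229628-84229657 (minus strand) before the downstream of its 2 starts, and the Per2 stretches at chr9:99497096-99497195 and chr9:99497038-99497067 (minus strand). Those of the clock genes Ciart and Tef, which are not among the 10, lie at chr2:186112257-186112286 (minus strand) and chr7:115206617-115206646 (plus strand).
Arntl, ROR element: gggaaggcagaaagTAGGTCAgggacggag
Nr1d1, E-box: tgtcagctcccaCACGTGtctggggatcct
Per2, D-box: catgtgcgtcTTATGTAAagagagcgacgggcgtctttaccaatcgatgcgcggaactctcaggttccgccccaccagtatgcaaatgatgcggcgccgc
Per2, E-box variant: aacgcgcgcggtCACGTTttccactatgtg
Ciart, 2 of 3 E-boxes: ggaggCACGTGcagagccgCACGTGtctgg
Tef, E-box: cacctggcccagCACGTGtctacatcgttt

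Matches in this window were few among the members. CACGTG stood before 1 of the 9 (Nr1d1) and before 5.59% of all 33469 promoter entries. CACGTT stood before 2 (Nr1d1, at its other start, and Per2; 4.07% of all entries), a D-box before 1 (Per2; 0.932%) and TAGGTCA before 1 (Arntl; 2.26%). Of 12 further clock genes with an entry, 5 had CACGTG, namely Ciart, Tef, Bhlhe40, Bhlhe41 and Lonrf3. A match describes letters in the window, and its absence says nothing of sites elsewhere.

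The normalised values are read counts per gene symbol scaled by a factor for each library, and they summed to 17.8 to 18.0 M (mega) in WT and 18.9 to 19.3 M in Ahr-KO. Judged by the smallest recurring step, WT libraries 0, 1 and 2 held about 17.8, 21.9 and 12.9 M reads and Ahr-KO libraries 0, 1 and 2 about 23.6, 22.9 and 14.2 M. The libraries numbered 2 were thus the shallowest of each group, and the member value with the fewest reads behind it (Nfil3 in WT library 2) rested on about 85. Ahr itself was read in all 6 libraries (2399 to 3923), and since the place of the edit is unknown this does not check the labels. Its target Cyp1a1 stood at 23512 to 37694 in WT and at 0.83 to 10.5 in Ahr-KO. Summed markers of alveolar type 2 cells lay between 458900 and 661200, so the defining markers of lung were present in all 6 libraries. By genotype, 4 of 4 T cell and 3 of 4 B cell markers fell and 2 of 4 alveolar type 1 markers rose, where 10.8% of all tested genes changed in either direction. Of 4 markers each, 1 rose for endothelium, 1 fell for fibroblasts and for club cells, and 1 rose and 1 fell for ciliated cells. The part of such changes in the values below was not tested. Of 14 marker lists, that of heart or skeletal muscle was highest in WT library 2 (3952, against 699.8 to 1619 in the other 5 libraries), and Marco and Ucp1 were listed at 0 everywhere.

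For 9 of the 10 members the difference between genotypes, on the log2(value + 1) scale, was smaller than the SD between libraries of the same genotype, barely so for Per3 (1.09 against 1.11) and Clock (0.11 against 0.14). For Nr1d1 it was larger (1.56 against 1.36). In each genotype, library 2 had low Arntl and Npas2 and high Dbp, Nr1d1, Nr1d2, Per2 and Per3, and libraries 0 and 1 had the reverse. WT libraries 0 and 1 held the lowest and WT library 2 the highest or second highest value of each of the latter 5 genes, with the Ahr-KO libraries mostly in between.

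Among the genes of the ARNTL side, Arntl had values of 1046, 897 and 203 in WT, here and below in the order of libraries 0, 1 and 2, and of 857, 1036 and 462 in Ahr-KO. WT library 2 was lowest, Ahr-KO library 2 next, and the other 4 lay close together, so the genotypes overlapped. Npas2, whose protein can take the place of CLOCK, stood at 1235, 1298 and 349.7 in WT and at 1128, 1245 and 806 in Ahr-KO, with the same pair of libraries lowest. Its 6 values followed those of Arntl most closely of all members, with a root mean square distance between their log2 deviations of 0.23.

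Clock, the partner of ARNTL, was nearly level. It stood at 1934, 1925 and 1979 in WT and at 2274, 2271 and 1802 in Ahr-KO, so its highest value was 1.26 times its lowest. Cry1, a repressor of the loop, stood at 368, 231 and 243 in WT and at 334, 338 and 266 in Ahr-KO, a ratio of 1.59 between highest and lowest. WT library 1 was its lowest, unlike in any other member. Nfil3, the D-box repressor, stood at 358, 338 and 119 in WT and at 233, 189 and 142 in Ahr-KO. All 3 Ahr-KO values lay inside the WT range, with library 2 lowest in each genotype.

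Dbp, the D-box activator, spread the most. It stood at 112, 133 and 2357 in WT and at 394, 422 and 1559 in Ahr-KO, a ratio of 21.1 between WT library 2 and WT library 0. The 3 Ahr-KO values lay between the WT extremes. Its linear group mean was slightly lower in Ahr-KO (792 ± 665, SD, n = 3, against 867 ± 1290.2 in WT), while its mean on the log2 scale was higher, since a single WT value carried the WT mean.

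The REV-ERB genes Nr1d1 and Nr1d2, repressors of Arntl, followed Dbp. Nr1d1 stood at 309, 865 and 3859.6 in WT and at 1965, 2932 and 4619 in Ahr-KO, a ratio of 14.9 between the extremes. Ahr-KO library 2 was highest here, and WT libraries 0 and 1 lay below all the others. Nr1d2 stood at 899, 1247 and 4339 in WT and at 2379.95, 2474 and 3023 in Ahr-KO, a ratio of 4.83, and the Ahr-KO libraries lay closely together between the WT extremes.

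The period genes Per2 and Per3, whose proteins inhibit the ARNTL pair, showed the same order at its ends. Per2 stood at 388, 462 and 1740.2 in WT and at 851, 604 and 1428 in Ahr-KO, a ratio of 4.49. Per3 stood at 213, 334 and 1483 in WT and at 785, 821 and 1577 in Ahr-KO, a ratio of 7.41. For both genes, WT libraries 0 and 1 were lowest and the libraries numbered 2 were highest. The plot of the 10 members by library shows these values side by side.

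**Figure D1:**
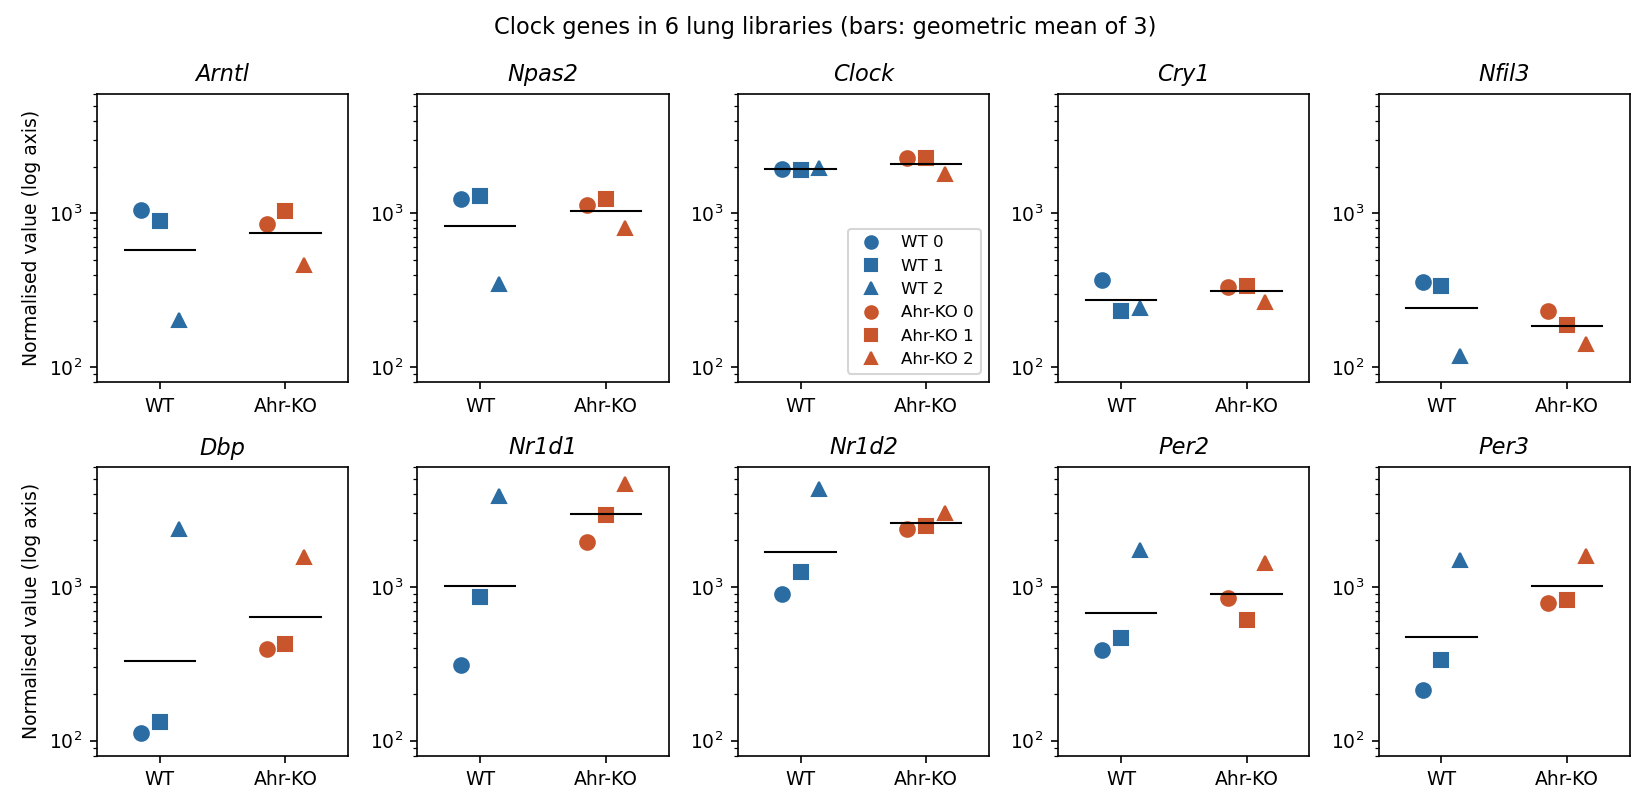
Normalised value (log axis) of each of the 10 clock genes in 3 WT and 3 Ahr-KO lung libraries; marker shape gives the library number and bars the geometric mean of 3. The triangles (library 2) lie low for Arntl, Npas2 and Nfil3 and high for Dbp, Nr1d1, Nr1d2, Per2 and Per3 in both genotypes, and the genotypes overlap for all 10 genes.

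To order the libraries, an index of clock phase was formed on the log2(value + 1) scale. It is the mean deviation of Arntl, Npas2, Clock, Cry1 and Nfil3 from their 6-library means, minus that of Dbp, Nr1d1, Nr1d2, Per2 and Per3. The index was 2.11 in WT library 0, 1.31 in WT library 1, 0.14 in Ahr-KO library 0, 0.11 in Ahr-KO library 1, -1.47 in Ahr-KO library 2 and -2.20 in WT library 2. WT libraries thus held both ends of the order, and the Ahr-KO libraries lay inside them. Ahr-KO libraries 0 and 1 had nearly the same index, a gap of far less than that between any other neighbours. The order came mainly from the Dbp side, whose mean deviation ran from -1.69 to 1.36, while that of the ARNTL side ran from 0.42 to -0.84. With Arntl and Dbp alone, Ahr-KO libraries 0 and 1 changed places (0.60 and 0.78) and the rest of the order was kept. With the genes Per1, Cry2, Ciart, Tef, Hlf and Usp2 in place of the Dbp side, the order was WT library 0 (0.73), Ahr-KO library 1 (0.67), WT library 1 (0.53), Ahr-KO library 0 (0.10), Ahr-KO library 2 (-0.61) and WT library 2 (-1.43), so Ahr-KO library 1 moved above WT library 1 and the libraries numbered 2 stayed at the end.

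**Figure D2:**
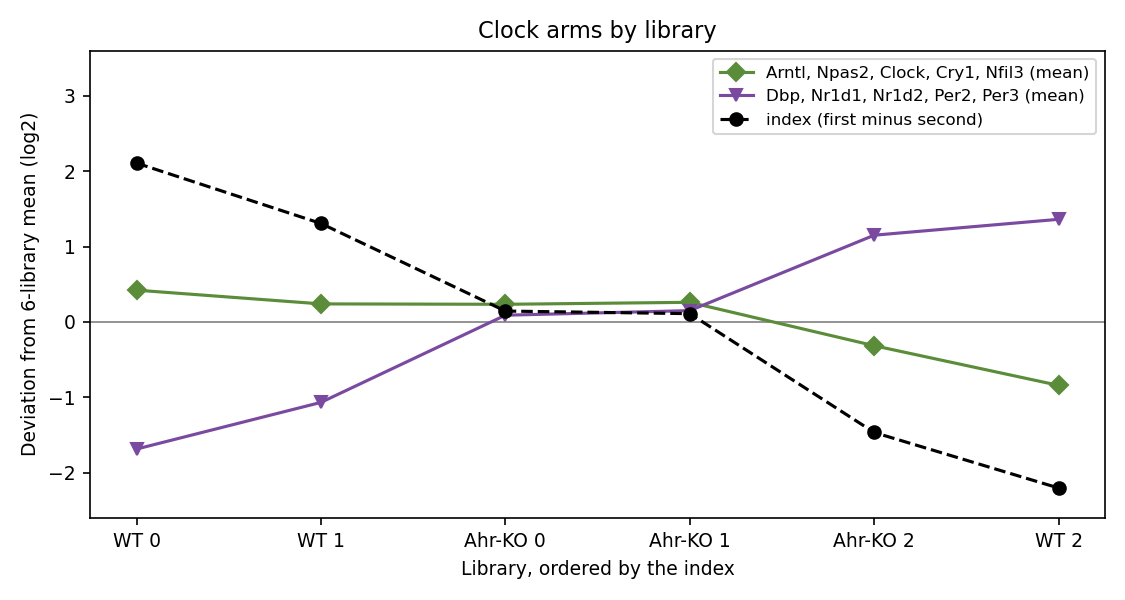
Mean log2 deviation from the 6-library mean (vertical axis) of the ARNTL side, the Dbp side and their difference, the index, in each library, ordered by the index from 2.11 (WT library 0) to -2.20 (WT library 2). The Dbp side rises from left to right through both genotypes, and the ARNTL side is nearly level in 4 libraries and lower in those numbered 2.

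A single index cannot show a position on a cycle, so 2 pairs of genes were set against each other. Dbp against Arntl set 3 kinds of library apart: WT 0 and 1 with high Arntl and Dbp at 112 and 133, Ahr-KO 0 and 1 with similar Arntl but Dbp at 394 and 422, and those numbered 2 with low Arntl and high Dbp. Nr1d1, known to peak early, and Per2, known to peak late, did not move in fixed proportion. The log2 deviation of Nr1d1 minus that of Per2 was -1.48, -0.25 and -0.0018 in WT and 0.06, 1.13 and 0.54 in Ahr-KO. All 3 Ahr-KO values were higher than the WT values, closely so for Ahr-KO library 0, and the highest was that of Ahr-KO library 1, where Nr1d1 was 2932 and Per2 only 604. These contrasts were chosen after the values were seen and have no test.

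**Figure D3:**
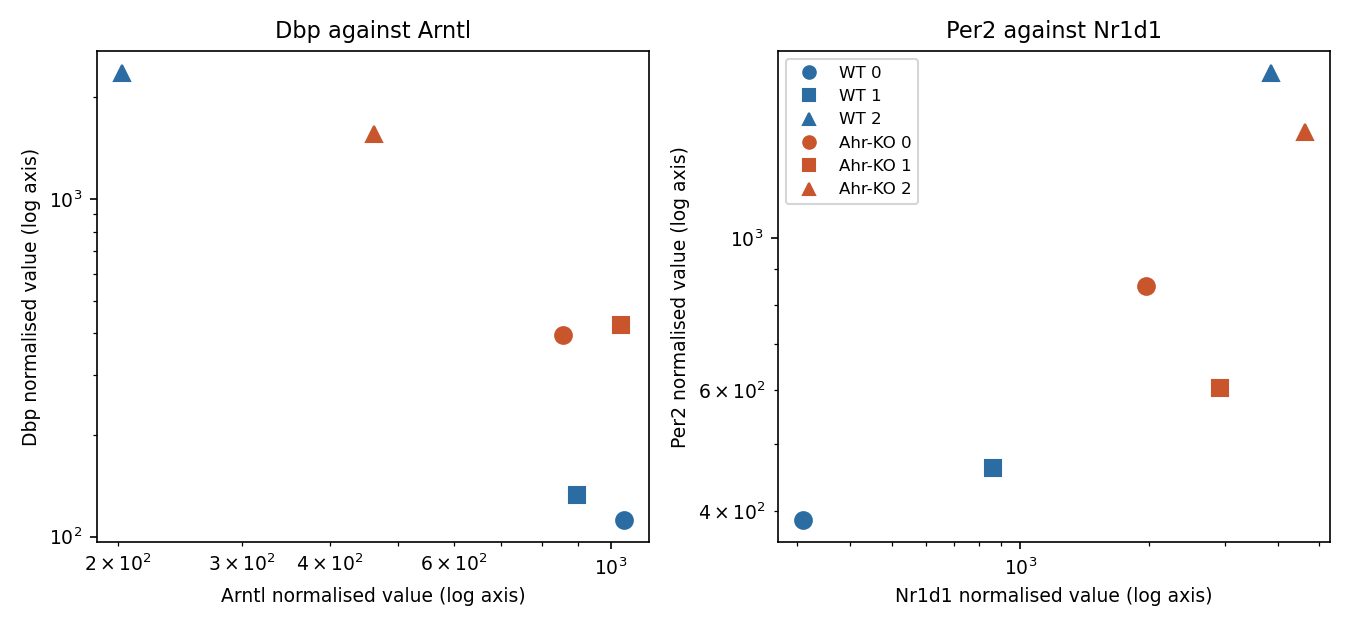
Dbp against Arntl (left) and Per2 against Nr1d1 (right), normalised values on log axes, 1 point for each of the 6 libraries. Ahr-KO libraries 0 and 1 share the Arntl level of WT libraries 0 and 1 at higher Dbp, and Ahr-KO library 1 lies below the others on the right for its Nr1d1 level.

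The spread within a genotype was wide for 8 of the 10 members when set beside other genes. The within-genotype SD of log2(value + 1) had a median of 0.16 over the 11133 tested genes with a mean value of at least 100. It was 1.91 for Dbp, higher than for 99.8% of those genes, 1.36 for Nr1d1 (99.8%) and 1.11 for Per3 (99.6%). Arntl (1.02), Per2 (0.95), Nr1d2 (0.86), Npas2 (0.79) and Nfil3 (0.68) stood above 98.5% to 99.5% of them. Cry1 (0.29, above 83.1%) and Clock (0.14, above 38.8%) did not stand out to that degree. The members were chosen with values of these libraries known, so these ranks are a description.

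**Figure D4:**
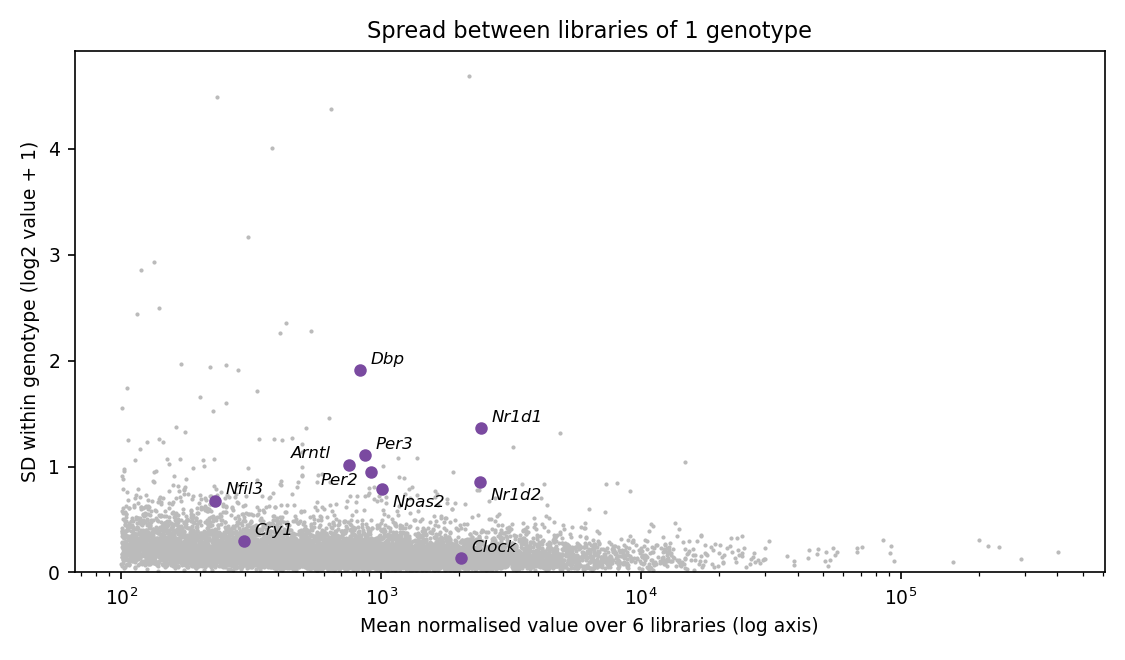
SD within genotype of log2(value + 1) against the mean value over 6 libraries (log axis) for 11133 genes with a mean of at least 100, with the 10 members named. Dbp (1.91) and Nr1d1 (1.36) lie far above the median gene (0.16), and Clock (0.14) lies below it.

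The genotype comparison of the members rested on this spread. Differences are Ahr-KO minus WT on the log2(value + 1) scale ± SE from limma-trend, a linear model over all genes whose calls use a Benjamini-Hochberg adjusted p under 0.05. Over all 6 libraries 0 of 10 members passed (0 also at an unadjusted p under 0.05 and 0 by limma-voom), where 10.8% of 15386 tested genes did. None of the 10 had groups that did not overlap, which held for 34.3% of tested genes. Because the members were chosen on these libraries, nothing is read from either count. The largest difference was that of Nr1d1, 1.56 ± 0.80 (95% interval -0.28 to 3.40), followed by Per3 at 1.09 ± 0.65 (-0.41 to 2.58) and Dbp at 0.96 ± 1.11 (-1.61 to 3.53). Nr1d2 was at 0.62 ± 0.50, Per2 at 0.41 ± 0.56, Arntl at 0.37 ± 0.60, Npas2 at 0.34 ± 0.47, Cry1 at 0.18 ± 0.20, Clock at 0.11 ± 0.11 and Nfil3 at -0.40 ± 0.41. All 10 intervals of 95% included 0. The median difference was 0.96 for the Dbp side and 0.18 for the ARNTL side, against 0.01 for all tested genes.

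Which libraries entered decided what the comparison showed. Without WT library 2, all 5 genes of the Dbp side were higher in every Ahr-KO library than in WT libraries 0 and 1, as were 25.3% of tested genes. Nr1d1 then differed by 2.53 ± 0.48, Dbp by 2.38 ± 0.56, Per3 by 1.91 ± 0.33, Nr1d2 by 1.30 ± 0.16 and Per2 by 1.09 ± 0.32. On the ARNTL side, Arntl (-0.38 ± 0.31) and Npas2 (-0.28 ± 0.18) turned negative and Nfil3 (-0.91 ± 0.21) became more negative. Clock (0.12 ± 0.12) and Cry1 (0.09 ± 0.22) stayed positive. These values are a description, since both the members and the library left out were known to stand apart. Without WT library 0 the differences of the Dbp side shrank instead. They were 0.18 ± 1.13 for Dbp, 0.71 ± 0.60 for Nr1d1, 0.51 ± 0.59 for Per3, 0.17 ± 0.45 for Nr1d2 and 0.01 ± 0.56 for Per2. On the ARNTL side, Arntl (0.80 ± 0.60), Npas2 (0.63 ± 0.49) and Cry1 (0.39 ± 0.17) grew. Nfil3 (-0.12 ± 0.43) shrank and Clock (0.11 ± 0.13) hardly moved. Without both libraries numbered 2, the 5 genes of the Dbp side were again higher in both Ahr-KO libraries, as were 30.2% of tested genes, an alternative chosen after seeing the data.

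**Figure D5:**
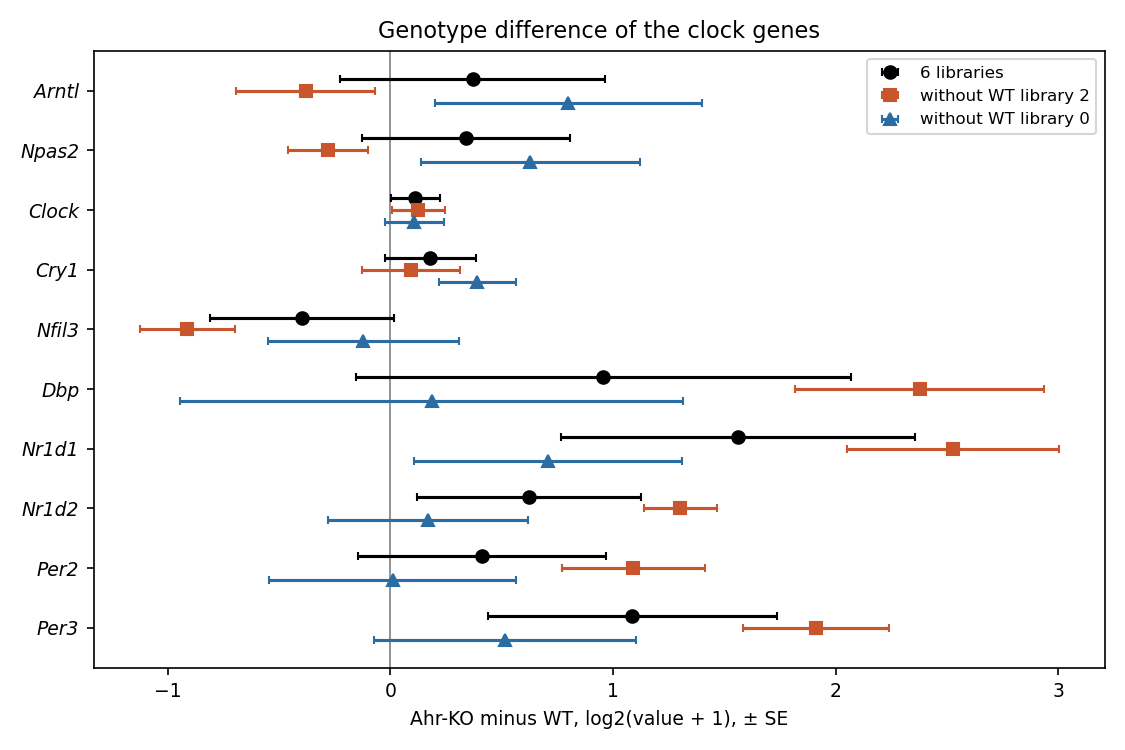
Ahr-KO minus WT difference of each member on the log2(value + 1) scale ± SE, with all 6 libraries, without WT library 2 and without WT library 0. For Dbp it was 0.96 with all libraries, 2.38 without WT library 2 and 0.18 without WT library 0.

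The index gave the same picture. Its mean was 0.40 ± 2.29 (SD, n = 3) in WT and -0.40 ± 0.92 in Ahr-KO, a difference of -0.81 against a pooled within-genotype SD of 1.75. The difference was -2.11 without WT library 2 and 0.04 without WT library 0, so its size and its sign depended on single libraries. Of the variance of the index, 92.6% lay within genotypes. Since the sources used here give no time of collection, a genotype difference in the clock and a difference in the hour at which lungs were taken cannot be told apart. In whole lung, a change in the share of cells with a given transcript and a change of its level per cell cannot be told apart either. The libraries numbered 2 were also the shallowest, and WT library 2 had the highest heart or skeletal muscle markers, whose part in the order was not tested.

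The shared number did not mark a likeness over the whole transcriptome. Over all tested genes, the deviations of WT library 2 and Ahr-KO library 2 from their group means had a correlation of -0.07 across genes, which are not independent replicates, against 0.07 for the libraries numbered 1 and -0.10 for those numbered 0. Among genes with a mean of at least 100, these were -0.19, 0.08 and -0.25. The highest of any pair was that of WT library 2 with Ahr-KO library 0 (0.12 over all tested genes, 0.28 with a mean of at least 100). The deviations of a gene cancel out within each genotype, so these correlations are tied to each other. A likeness confined to few genes could not show in them, so they do not settle whether the numbers pair samples.

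In the comparison of all genes, most calls were kept when the order of the libraries was taken into the fit. With the index added as a term, 2042 genes passed in place of 1655, and 1538 were called in both fits, which is 92.9% of the calls without the term and 75.3% of those with it. The term is built from 10 genes of the same libraries and leaves 3 residual degrees of freedom in place of 4. Since 92.6% of the variance of the index lay within genotypes, the term could shift the genotype difference of most genes only little. A single index also cannot show a position on a cycle, so the part of clock phase in these calls was not tested.

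Of clock genes outside the 10, a list of outputs and loop genes and a list of regulators of clock proteins were read in the same fit. Of 15 tested outputs and loop genes, 1 fell and 14 did not pass. Of 18 regulators, 1 rose, 1 fell and 16 did not pass, so 3 of 33 genes passed, beside 10.8% of all tested genes. The median difference was -0.30 for the outputs and 0.05 for the regulators, against 0.01 for all tested genes.

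The PAR bZIP genes Tef and Hlf, relatives of Dbp, had the libraries numbered 2 at their high end like Dbp. Tef stood at 2068, 2408 and 6404 in WT and at 4874, 4488 and 5829 in Ahr-KO, a difference of 0.67 ± 0.38 (limma adjusted p = 0.30). Hlf stood at 493, 260.3 and 888 in WT and at 639, 709 and 810.3 in Ahr-KO (0.56 ± 0.38, adjusted p = 0.38 by limma). Both genes passed without WT library 2 (Tef at 1.17, adjusted p = 0.0062, and Hlf at 1.00, adjusted p = 0.049, by limma), as did Cry2. These calls are a description, since the library left out was known to stand apart and held the highest Tef and Hlf. Cry2, the other cryptochrome repressor, stood at 1031, 1012 and 1466 in WT and at 1369, 1831 and 1960.3 in Ahr-KO and was at 0.56 ± 0.18 over all libraries (limma adjusted p = 0.092).

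Ciart and Bhlhe40 were highest in WT library 2. Within Ahr-KO, library 2 was highest for Ciart by a small margin only and was not the highest for Bhlhe40. Ciart, a repressor of the ARNTL pair with 3 E-boxes in the window searched, stood at 23, 33.7 and 113 in WT and at 33, 26.4 and 36.8 in Ahr-KO. Its difference of -0.48 ± 0.54 (limma adjusted p = 0.61) turned to 0.19 without WT library 2. Bhlhe40, which represses E-box genes, stood at 971, 909 and 1540.2 in WT and at 741, 592 and 737 in Ahr-KO. All 3 Ahr-KO values were lower than the WT values, at -0.69 ± 0.20 (limma adjusted p = 0.069), and the gene passed with equal library totals (0.044) and with the index as a term (0.013). Its relative Bhlhe41 (-0.30 ± 0.29, limma adjusted p = 0.54) and the ROR receptor gene Rora (0.19 ± 0.13, adjusted p = 0.40), which competes with the REV-ERBs, did not pass.

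The gene that fell among the outputs was Usp2, a deubiquitinase whose transcript is known to cycle. It stood at 108, 105 and 147 in WT and at 77.4, 52.1 and 60.02 in Ahr-KO, so WT library 2 was highest but Ahr-KO library 2 was not (-0.92 ± 0.23, limma adjusted p = 0.045). Of the regulators, Crebbp, a histone acetyltransferase, rose from 1609 ± 47.2 to 2071 ± 97.9 (0.36 ± 0.08, limma adjusted p = 0.030). Sfpq, an RNA-binding partner of PER complexes, fell from 3194 ± 281 to 2433 ± 153 (-0.39 ± 0.10, limma adjusted p = 0.042). All 3 calls were near the threshold: Usp2 kept its call only without Ahr-KO library 0 (highest adjusted p elsewhere 0.14 by limma), and Crebbp (0.11) and Sfpq (0.14) kept theirs only without WT library 2. Quantile normalisation ended the calls of Usp2 (0.089) and Crebbp (0.058), equal library totals (0.064) and limma-voom (0.072) that of Crebbp, and no filter that of Usp2 (0.055). Limma without the trend ended all 3.

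Per1, the third period gene, did not follow the other members of its family. It stood at 2984, 3830.3 and 2437 in WT and at 4601, 654 and 4776 in Ahr-KO, a difference of -0.32 ± 0.69 (limma adjusted p = 0.80) that became 0.63 without Ahr-KO library 1. Ahr-KO library 1 was far below the other 5, whereas its Per2 (604) and Per3 (821) lay in the middle of the range. Per1 is also known as a gene that glucocorticoids induce. Of 8 glucocorticoid-induced genes, 3 were likewise lowest in Ahr-KO library 1 (Tsc22d3, Klf9 and Dusp1, named after their values were seen) and 5 were lowest in other libraries. Of the 8, 0 passed the genotype test by limma (0 at an unadjusted p under 0.05).

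Lists of genes that respond to temperature and handling were read beside the clock. Of 7 temperature-responsive genes 0 passed (3 at an unadjusted p under 0.05, by limma), and their median difference was -0.19. Cirbp, a cold-inducible RNA-binding protein gene, stood at 1331, 1027 and 764 in WT and 1432, 2069 and 1763 in Ahr-KO (0.77 ± 0.21, limma adjusted p = 0.056). Rbm3 of the same list differed in the other direction (-0.44 ± 0.16, limma adjusted p = 0.13), and Hspa8 was at 0.44 ± 0.15 (limma adjusted p = 0.11). Of 8 immediate early genes 3 fell, beside 6.26% of all tested genes that did. They were the early growth response genes Egr1 (-2.57 ± 0.52, limma adjusted p = 0.021) and Egr2 (-1.02 ± 0.20, 0.020), and Atf3, a stress-induced factor gene (-1.44 ± 0.29, 0.021). Each of these calls was lost in 3 of the fits that left out 1 library. For Egr1 these were the fits lacking an Ahr-KO library (up to 0.091 by limma), for Egr2 those lacking WT library 0 or 1 or Ahr-KO library 1 (up to 0.070), and for Atf3 those lacking WT library 0 or Ahr-KO library 1 or 2 (up to 0.069). Limma without the trend ended the calls of Egr1 (0.063) and Atf3 (0.058) and limma-voom that of Egr1 (0.054). Per1 and Per2 respond to the same stimuli in many cells, and the part of such stimuli in the values above was not tested.

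The genes most like Arntl and Dbp over the 6 libraries were found by the root mean square distance between log2 deviations, among 5262 other tested genes with a range of at least 1. The 6 nearest to Arntl were Tepp, Slc7a13, Hist1h2ail1, Armcx1, Rfxapl1 and Tro, at 0.12 to 0.22. All were low, from 0 in WT library 2 to at most 32.2, so the order rested on few reads and the libraries numbered 2 were the shallowest. The 6 nearest to Dbp were Bc1, Cpa4, Vps37c, Fstl4, Casp6 and an entry that names LOC259244, Obp3 and RGD1566134 together, at 0.75 to 0.83 and with values of at most 46.4.

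Among the 1919 such genes with a mean of at least 100, a limit chosen after seeing the data, the nearest to Arntl were Nqo2, Smim10l1, Lrfn3, Rps12, G0s2 and Camk2n1, at 0.35 to 0.41. Npas2, at 0.23, was nearer than any of the 1919, but farther than each of the 6 nearest of the 5262. Among the nearest to Dbp were Lpp, LOC100361083, Map3k2, Rasd2 and the heart muscle actin gene Actc1, at 0.95 to 1.06. Per3 (0.69), Nr1d1 (0.74), Per2 (0.87) and Nr1d2 (0.93) were each nearer than all of the 1919. Of these, Per2 and Nr1d2 were farther from Dbp than each of the 6 nearest of the 5262. Because the members were chosen on these libraries, nothing is read from the distances between them.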

How the data were processed

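The authors deposited a normalised signal per gene symbol and library, which the values show to be read counts, in part fractional, divided by a factor for each library. FastQC and the build rn6 are named per the submitters' processing notes; the sources used here do not give the aligner, counter, annotation or strandedness. Columns name genotype and number (0 to 2, where sample titles count from 1), so they were assigned to groups, not single samples; 0 value columns were left unused. Nothing says that libraries came from separate animals, so errors measure only how these libraries vary, which may be technical. On log2(value + 1), genotype was fitted with limma 3.58.1 (R 4.3.3, mean-variance trend) to the 15386 genes that reached 1 in 3 or more libraries; p-values are 2-sided. The code was tested on simulated data. Counting error was not modelled. Members and lists were chosen with earlier results of these data known. Named were the members, other clock genes that passed or belong to the loop, up to 3 genes of the lists read beside them, and the 6 genes nearest in pattern to Arntl and to Dbp. Items withheld from this text are not reported here.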

Additional observations from a re-analysis of the deposited data

How the results depend on the processing

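No member passed over all 6 libraries under any scaling, filter, pseudocount or model tried by limma, nor with an adjusted p under 0.10, and members changed sign only where WT library 2 was left out (Arntl and Npas2). The number of genes changed over the whole table (1655; 692 higher, 963 lower) became 449 higher and 1314 lower with equal library totals and 436 and 1290 with limma-voom. It was 2853 at an adjusted p under 0.10, 952 without the trend, 553 without both libraries numbered 2 (chosen after seeing the data) and 407 to 1834 without 1 library, with 407 and 529 when Ahr-KO library 2 or 1 was left out and 705 and 871 when WT library 0 or 1 was. Of the other clock genes, 3 passed; 6 did at an adjusted p under 0.10, 5 with the index as a term, 1 without both libraries numbered 2, 0 in limma without the trend (7 at an unadjusted p under 0.05; limma-voom called 3, with Bhlhe40 in place of Crebbp) and 0 to 5 without 1 library. Differences changed sign for Ciart without WT library 2 (0.19; range without 1 library -0.94 to 0.19) or without both libraries numbered 2 (0.084) and for Per1 without Ahr-KO library 1 (0.63; range -0.80 to 0.63). The index difference of -0.81 ranged from -2.11 to 0.04 without 1 library and was 0.11 with the non-member genes Per1, Cry2, Ciart, Tef, Hlf and Usp2 on the Dbp side. Over all tested genes, same-numbered libraries did not deviate together (correlations of -0.10, 0.07 and -0.07). The numbers were thus not taken to pair samples, although the libraries numbered 2 were both shallow and both low in the index. With the number as a replicate block, 899 genes, 0 members and 0 other clock genes passed by limma. At an unadjusted p under 0.05, 2 members and 8 other clock genes did. Usp2 (limma adjusted p of 0.084), Crebbp (0.082), Sfpq (0.091) and Atf3 (0.058) did not pass in that fit. The fit with the index as a term was not run for the members, which define it. The causes were not tested. Depth was 12.9 to 23.6 M reads, and its part in the members' values was not tested.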
